A study of Mus musculus with 6 samples.

Results

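Translation initiation factors were followed in 3 mouse adenocarcinoma-derived lines of a lung cancer study, KPR4, KPR5 and KPR8, before and after p53 was restored. The genes were all those whose probe sets carried a single symbol starting with Eif and a digit, with 1 probe set per gene, the brightest on average. This gave 42 genes of the 12393 named on the array, of which 41 passed the expression filter (log2 4 or above on at least 3 arrays) among 7644 genes tested. Each line, on a C57/B6-129SvJae background, was profiled once with ethanol and once 24 h after 4-OH tamoxifen at 250 nM in ethanol. Per the labels, the drug brings back p53 expression in every line. The labels give no further alleles, and the samples hold no line without restorable p53, so effects of p53 and of the drug itself cannot be told apart. Some factors of the same complexes, such as eIF4G1, eIF1 and the alpha subunit of eIF2, are not analysed here.

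Initiation factors bring the ribosome to the start codon of an mRNA. The factor eIF2 carries the initiator tRNA, eIF3 is a scaffold on the small ribosomal subunit, and the eIF4F complex binds the mRNA cap and unwinds the leader. The guanine exchange factor eIF2B recharges eIF2, and stress kinases block that step by phosphorylating the alpha subunit of eIF2. The 4E-binding proteins hold the cap-binding protein eIF4E when mTOR signalling is low. Tumour cells depend on this machinery, and several of its genes are known targets of the growth-promoting transcription factor MYC.

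After p53 was restored, 1 of the 41 genes rose and 3 fell, all by less than 2-fold. Eif2ak3, encoding PERK, the endoplasmic reticulum stress kinase of eIF2, rose 1.63-fold. Eif3d, a subunit of eIF3 that can itself bind the cap of some mRNAs, ended 1.41-fold lower. Eif4e, the cap-binding protein, ended 1.33-fold lower and Eif1ax, which helps the small subunit scan for the start codon, 1.31-fold lower. Thus 2.44% of the initiation factor genes rose and 7.32% fell, where 10.5% of all genes tested rose and 8.94% fell (limma, Benjamini-Hochberg adjusted p under 0.05 over 7644 genes). The share of risers lay under that background, and that of fallers was close to it. The line was a term of the fit. Without that term 0 of the 41 passed (2 at an unadjusted p under 0.05, or 4.88%, against 10.2% of all genes), and 0.288% of all genes rose and 0.0131% fell. With it, 13 of the 41 (31.7%) had an unadjusted p under 0.05, as did 32.7% of all genes. The known p53 targets Cdkn1a, Mdm2 and Ccng1 moved on the same arrays by log2 4.63, 2.94 and 2.86.

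The sequences before the annotated starts of these 4 genes are shown because these are the members that passed the test, and because they differ in which promoter motifs they hold. Each is the 250 bases before a RefSeq transcript start in GRCm38.p6, written on the gene's strand, with motif matches in capitals. The motifs, searched on both strands, were the E-box CACGTG bound by MYC, the CCAAT box CCAAT, the GC box GGGCGG, the ETS site CCGGAAGT, the amino acid and stress response element TGATGNAA, and the p53 decamer. Eif4e has 2 annotated starts, and the window with matches is shown; the other holds 0 matches. The windows lie at chr6:70844265-70844514 on the plus strand for Eif2ak3, chr3:138527018-138527267 on the plus strand for Eif4e, chr15:77970825-77971074 on the minus strand for Eif3d, and chrX:159371928-159372177 on the plus strand for Eif1ax.
Eif2ak3: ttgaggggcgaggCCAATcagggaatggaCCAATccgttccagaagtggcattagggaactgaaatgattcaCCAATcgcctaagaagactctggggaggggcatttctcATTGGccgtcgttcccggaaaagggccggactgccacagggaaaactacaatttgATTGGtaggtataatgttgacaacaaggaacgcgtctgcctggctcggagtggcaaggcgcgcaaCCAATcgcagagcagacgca
Eif4e: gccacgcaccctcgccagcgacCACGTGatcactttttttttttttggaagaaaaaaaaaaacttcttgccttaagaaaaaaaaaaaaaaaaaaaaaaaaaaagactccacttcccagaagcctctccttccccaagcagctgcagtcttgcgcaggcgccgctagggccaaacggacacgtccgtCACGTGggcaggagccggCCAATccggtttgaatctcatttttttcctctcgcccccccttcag
Eif3d: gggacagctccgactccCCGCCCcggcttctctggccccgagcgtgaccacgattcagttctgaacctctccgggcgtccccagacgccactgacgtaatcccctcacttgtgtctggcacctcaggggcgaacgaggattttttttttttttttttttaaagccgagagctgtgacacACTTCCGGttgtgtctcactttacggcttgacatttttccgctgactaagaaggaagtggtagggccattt
Eif1ax: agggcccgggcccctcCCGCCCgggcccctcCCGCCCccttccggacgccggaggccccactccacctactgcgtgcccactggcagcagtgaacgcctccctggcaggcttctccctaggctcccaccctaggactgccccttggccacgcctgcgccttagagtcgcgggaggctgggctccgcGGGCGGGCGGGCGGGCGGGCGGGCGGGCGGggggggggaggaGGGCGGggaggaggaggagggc

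The Eif2ak3 window holds 6 CCAAT boxes, the nearest starting 20 bases and the farthest 237 bases before the start. After that count was seen, windows with 6 or more were counted: there were 19 among the 32851 of the table, or 0.0578%. The Eif4e window holds 2 E-boxes, 64 and 228 bases before the start, as 141 windows (0.429%) do to that number or more. The Eif3d window holds 1 GC box and 1 ETS site. That of Eif1ax holds 10 GC box matches, 7 of them in a single repeat where neighbouring matches overlap. An annotated window was found for 34 of the 41 genes. The E-box was in that of 7 of the 34 (20.6%), in 10.4% of the 6261 tested genes with a window, and in 6.02% of all windows. For the GC box the shares were 70.6%, 66.2% and 32.7%, for the CCAAT box 35.3%, 40.7% and 33.8%, and for the ETS site 11.8%, 7.38% and 2.88%. The stress element was in 1 of the 34, Eif2s3x (2.94%, against 2.38% and 3.45%), and the p53 decamer in 0 of 34, against 7.38% and 7.13%. A gene with several windows was counted once if any held the motif. These are matches of letters, not measured binding.

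Among the 4 kinases of eIF2 alpha, Eif2ak3 was the member that changed (25.0% rose, where 10.5% of all genes tested did). Its probe set 1449278_at read, as log2 expression, 5.92 with ethanol and 6.44 with the drug in KPR4, 5.78 and 6.66 in KPR5, and 6.03 and 6.75 in KPR8. Each drug-treated array lay above all 3 ethanol arrays, as for 7.48% of all genes tested. In the limma fit the change was 0.71 ± 0.17 (SE, n = 3 lines, adjusted p = 0.00803). Without KPR5 it was 0.62 and just missed the threshold (limma, adjusted p = 0.0587). It passed narrowly without KPR8 (0.70, adjusted p = 0.0479) and passed without KPR4 (0.80, adjusted p = 0.0129). These fits hold fewer arrays, so a lost call does not single out a line. The other 3 kinases did not pass. Eif2ak4 encodes GCN2, the sensor of amino acid shortage, and its differences were -0.70, -0.30 and 0.21 in KPR4, KPR5 and KPR8. Eif2ak1, the haem-regulated kinase, gave -0.27, 0.56 and -0.06. Eif2ak2, the double-stranded RNA sensor PKR, gave -0.20, 0.02 and 0.46. None of the last 3 had the same sign in every line, and their mean differences were -0.27 ± 0.19, 0.08 ± 0.18 and 0.09 ± 0.18 (SE).

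**Figure D1:**
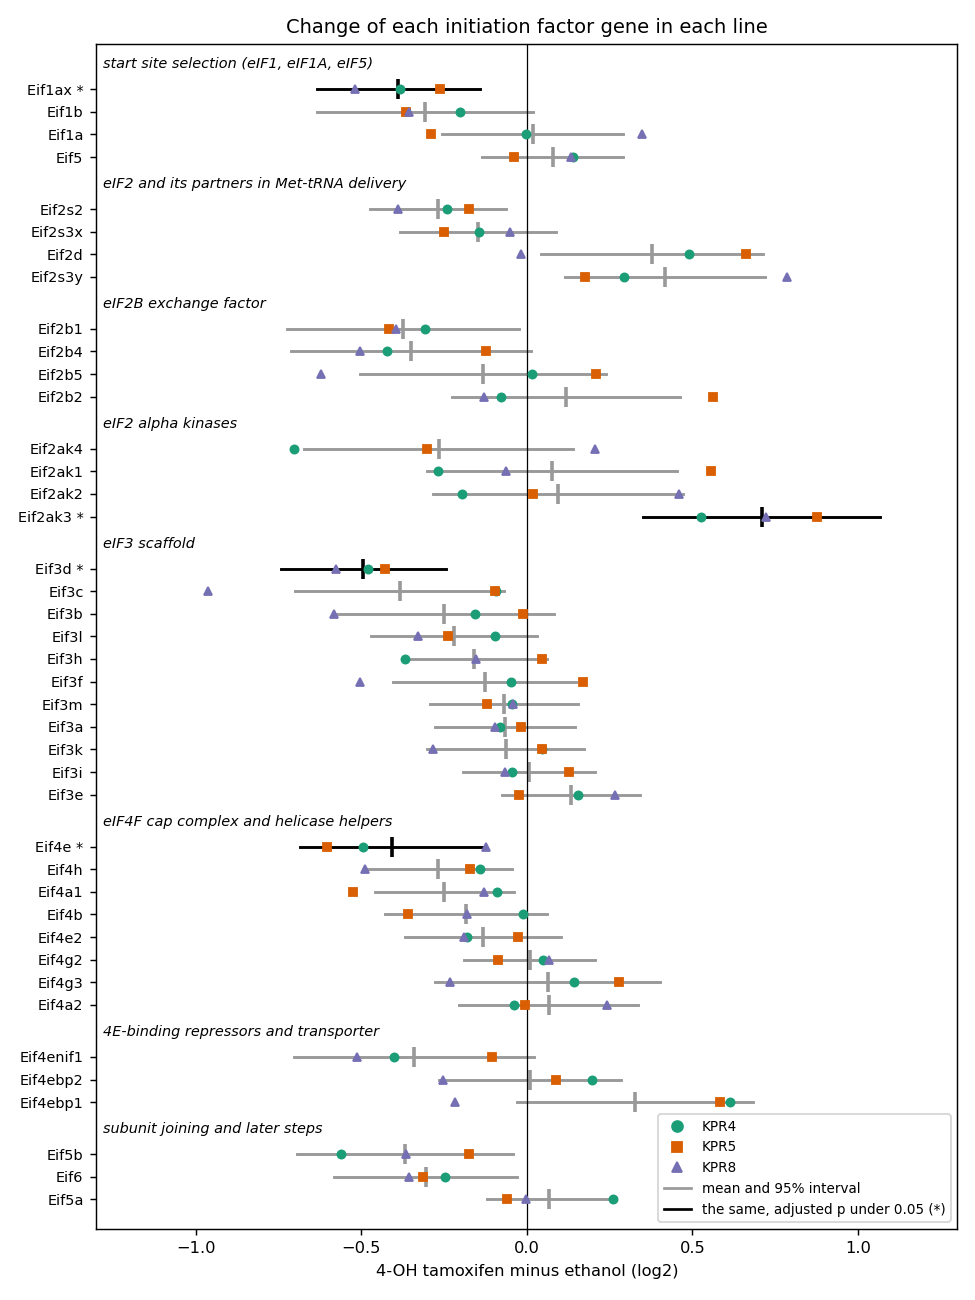
Log2 difference between the 4-OH tamoxifen and the ethanol array (x axis) for the 41 initiation factor genes, grouped by role. Coloured points are the 3 lines, vertical ticks the mean with its 95% interval from limma, and black marks the 4 genes that passed the test; most points lie within log2 0.5 of 0, with Eif2ak3 the furthest to the right.

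The eIF2 complex and its partners had 0 of 4 genes past the test (limma), and 3 of 4 had an unadjusted p under 0.05, as did 32.7% of all genes tested. Eif2s2, the beta subunit of eIF2, read 12.10, 12.22 and 11.87 with ethanol and 11.86, 12.04 and 11.48 with the drug, a difference of -0.27 ± 0.10 (SE, adjusted p = 0.0644 by limma). The value was lower with the drug in each line, by less than the widest gap between line means (0.46). Eif2s3x and Eif2s3y encode the gamma subunit from the X and the Y chromosome, and the difference was -0.15 ± 0.11 for Eif2s3x and 0.42 ± 0.14 for Eif2s3y (adjusted p = 0.387 and 0.0512). The Eif2s3x value comes from an _x_at probe set, and its sign turned to 0.040 with _x_at and _s_at probe sets left out and with the median of the gene's probe sets. Eif2s3y went from 10.27 to 10.56 in KPR4, from 8.90 to 9.08 in KPR5 and from 9.72 to 10.50 in KPR8, so every line moved up, by unequal amounts. Without KPR5 its change was 0.54 and passed (adjusted p = 0.0327). The difference between the paralogues was not tested. Eif2d, which can deliver tRNA without eIF2, read 0.49 and 0.66 higher in KPR4 and KPR5 and -0.02 in KPR8. It passed in limma without KPR8, the line that did not move (0.58, adjusted p = 0.0433). It did not pass without KPR4 (0.32, adjusted p = 0.365) or KPR5 (0.24, adjusted p = 0.475).

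The exchange factor eIF2B had 0 of 4 measured subunit genes past the test (limma), and 1 had an unadjusted p under 0.05, where 32.7% of all genes did. Eif2b1, of the regulatory alpha subunit, read 6.34, 6.75 and 6.70 with ethanol and 6.03, 6.33 and 6.30 with the drug. The drug-treated arrays lay below all ethanol arrays, as for 8.2% of all genes tested, yet the difference of -0.37 ± 0.16 (SE) had an adjusted p of 0.127 in limma. Eif2b4, the delta subunit, differed by -0.35 ± 0.17, with each line below 0. Eif2b5, the catalytic epsilon subunit, gave 0.02, 0.21 and -0.62 in KPR4, KPR5 and KPR8, and Eif2b2, the beta subunit, -0.08, 0.56 and -0.13. These subunits of a single complex therefore showed no shared direction in KPR5.

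Of the 4 genes of start site selection, Eif1ax fell (25.0%, where 8.94% of all genes tested did). Its probe set 1419736_a_at read 10.71, 10.83 and 10.94 with ethanol and 10.33, 10.57 and 10.43 with the drug. The groups thus did not overlap, as for 8.2% of all genes tested in that direction. The change was -0.39 ± 0.12 (SE, adjusted p = 0.0287 in limma), but it no longer passed when KPR4 (-0.39, adjusted p = 0.14) or KPR8 (-0.32, adjusted p = 0.106) was left out. A dimmer probe set gave -0.29. Its autosomal relative Eif1a gave 0.00, -0.29 and 0.35 in KPR4, KPR5 and KPR8, a mean of 0.02 ± 0.13. That value comes from a probe set of the _s_at kind, which by Affymetrix naming can detect transcripts of several genes. Eif1b, a close relative of eIF1, read 8.09, 8.19 and 8.08 with ethanol and 7.89, 7.82 and 7.73 with the drug. Its groups did not overlap either (8.2% of all genes tested), at -0.31 ± 0.15 and an adjusted p of 0.176 in limma. Eif5, the activator of GTP hydrolysis by eIF2, had a mean difference of 0.08 ± 0.10.

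The scaffold eIF3 was measured for 11 genes, of which Eif3d fell and 0 rose. Thus 9.09% fell, close to the 8.94% of all genes tested, of which 10.5% rose. Eif3d (1416100_at) read 10.44 with ethanol and 9.96 with the drug in KPR4, 11.03 and 10.60 in KPR5, and 10.47 and 9.89 in KPR8. The groups overlapped because KPR5 was high throughout, but the differences of -0.48, -0.43 and -0.57 were nearly equal. The change was -0.49 ± 0.12 (SE, adjusted p = 0.00784 by limma), and it held with any line left out. Eif3c, part of the core that binds the small subunit, gave -0.09, -0.10 and -0.96, so its mean came mainly from KPR8, at -0.38 ± 0.15 (adjusted p = 0.0816). Leaving out a line that barely moved let Eif3c pass, at -0.53 without either KPR4 (adjusted p = 0.0134) or KPR5 (adjusted p = 0.0432). Without KPR8 its change was -0.09 (limma, adjusted p = 0.554). The differences of Eif3b, Eif3f and Eif3k were also lowest in KPR8, at -0.58, -0.50 and -0.28, against -0.16 to 0.17 in the other lines. Eif3a, the largest subunit, and Eif3m differed by -0.12 to -0.02 in each line. Eif3e gave 0.15, -0.02 and 0.27, Eif3h -0.37, 0.05 and -0.15, Eif3i -0.04, 0.13 and -0.07 and Eif3l -0.10, -0.24 and -0.33.

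In the cap complex and its helpers, Eif4e fell (12.5%, where 8.94% of all genes tested did) and the other 7 tested genes did not pass. Eif4e (1450908_at) read 10.40, 10.34 and 10.36 with ethanol, a spread of 0.03 (SD), and 9.91, 9.73 and 10.23 with the drug. The drug-treated arrays all lay below the ethanol arrays, as for 8.2% of all genes tested. The smallest step was in KPR8 (-0.12, against -0.50 in KPR4 and -0.60 in KPR5). The change was -0.41 ± 0.13 (SE) with an adjusted p of 0.0406 in limma, close to the threshold. It lost the call without KPR4 (-0.36, adjusted p = 0.217) or KPR5 (-0.31, adjusted p = 0.221). The 2 other probe sets of Eif4e gave -0.53 each, and both passed when each probe set was tested by itself (adjusted p = 0.0465 and 0.0397), where the main probe set narrowly missed (adjusted p = 0.0519). Thus all 3 measurements of this gene pointed down.

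The eIF4A helicases unwind mRNA leaders with the help of eIF4B and eIF4H. Eif4a1 read 12.66, 12.94 and 12.55 with ethanol and 12.57, 12.41 and 12.42 with the drug, a difference of -0.25 ± 0.10 (SE, adjusted p = 0.0914 by limma). Its paralogue Eif4a2 gave 0.07 ± 0.13. Eif4h differed by -0.27 ± 0.10, Eif4b by -0.18 ± 0.11 and Eif4e2, a cap-binding protein of translational repression, by -0.13 ± 0.11. The scaffold gene Eif4g3 gave 0.06 ± 0.16 and Eif4g2, an eIF4G relative without the eIF4E-binding site, 0.01 ± 0.09. Eif4e3, another eIF4E relative, was the member below the filter, with readings between 3.53 and 3.81 on the 6 arrays. The bacterial control probe sets, which mark background, reached 2.84, so Eif4e3 was little above them.

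Of the 3 genes for proteins that bind eIF4E and repress or move it, 0 passed (limma), and 0 had an unadjusted p under 0.05, against 32.7% of all genes. Eif4ebp1, a target of mTOR, read 8.23, 9.19 and 9.62 with ethanol and 8.84, 9.77 and 9.41 with the drug. It was thus 0.61 and 0.58 higher in KPR4 and KPR5 and differed by -0.22 in KPR8. The mean was 0.33 ± 0.17 (SE, adjusted p = 0.192 in limma). It passed without KPR8 (0.60, adjusted p = 0.0349) but not without KPR4 (0.18, adjusted p = 0.639) or KPR5 (0.20, adjusted p = 0.585). These values rest on a probe set of the _x_at kind, whose probes can match other transcripts. The next probe set of the gene gave -0.02, -0.14 and -0.69. Eif4ebp2 gave 0.20, 0.09 and -0.25, with a mean of 0.01 ± 0.13. Eif4enif1, which carries eIF4E into the nucleus, read 6.19, 6.13 and 6.29 with ethanol and 5.79, 6.03 and 5.77 with the drug. Its groups did not overlap (8.2% of all genes tested), with a difference of -0.34 ± 0.17 (adjusted p = 0.180 in limma). For the later steps 0 of 3 genes passed in limma, and 2 had an unadjusted p under 0.05, against 32.7% of all genes. Eif5b, the GTPase of subunit joining, differed by -0.37 ± 0.15 (adjusted p = 0.107) and Eif6, which keeps the subunits apart, by -0.31 ± 0.13. Eif5a, a hypusine-bearing factor that also aids elongation, gave 0.07 ± 0.09.

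**Figure D2:**
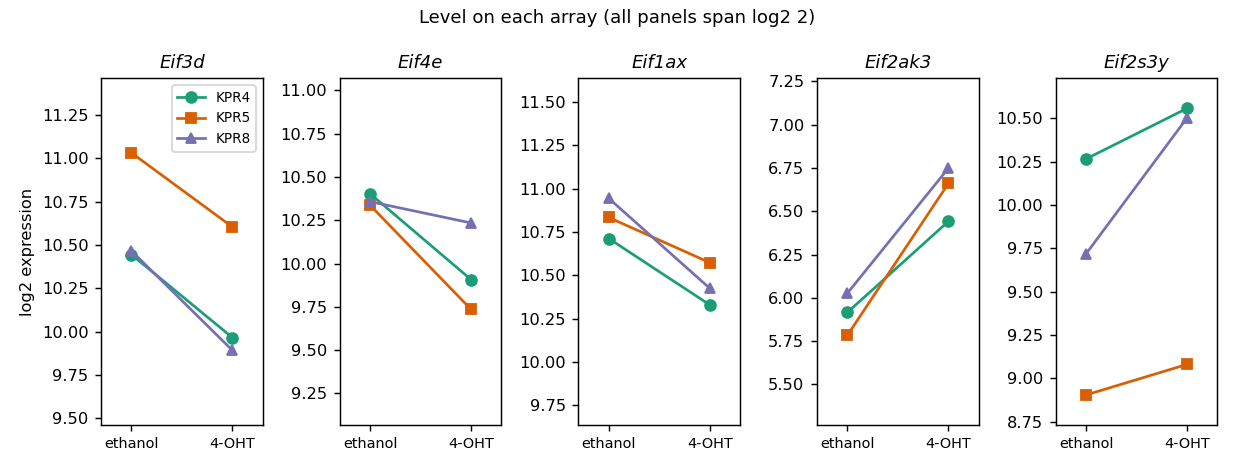
Log2 expression (y axis) with ethanol and with 4-OH tamoxifen (4-OHT) for the 4 genes that passed the test and for Eif2s3y, with a line joining the 2 arrays of each cell line. Each panel spans the same log2 range; Eif3d steps down by a similar amount in every line, Eif4e least in KPR8, and Eif2s3y keeps a large gap between KPR5 and the other lines.

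As a group the initiation factors leaned slightly downward. The median change of the 41 genes was -0.13, against 0.00 over all genes tested, and 25 lay below 0 (61.0%, against 49.8%). It was -0.14 after centring the arrays and -0.12 after quantile normalization. The same sign in each line was seen downward in 20 of the 41 genes (48.8%, where the background was 25.7%) and upward in 2 (4.88%, where it was 26.0%). By line the median was -0.09 in KPR4, -0.06 in KPR5 and -0.18 in KPR8, against 0.01, 0.03 and -0.04 for all genes. The gap between the 3' and 5' control probe sets of Gapdh, a measure of RNA integrity, shifted with the drug by 0.24, 0.29 and -0.40 in these lines, and that of Actb by 0.16, 0.39 and -0.07. Their part in the result was not tested. The sizes are small: the 95% interval of the change, unadjusted, lay within log2 0.5 of 0 for 24 of the 41 genes and within log2 1 for 40. The exception was Eif2ak3, with an interval from 0.35 to 1.07. In whole-culture RNA, fewer cells of a kind and less RNA per cell cannot be told apart.

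Several genes were measured by more than 1 probe set, which gives a check within the same arrays. Of the 41 genes, 25 had at least 2 probe sets past the filter. The changes had a single sign in 12 of the 25 and both signs in 13. When all 88 passing probe sets of these genes were tested singly, 2 were higher and 8 lower (limma, adjusted over 12013 probe sets), where 8.26% and 7.68% of all probe sets were. They belonged to 9 genes. Besides probe sets of Eif2ak3, Eif3d, Eif1ax and Eif4e, a dimmer Eif4a1 probe set fell (-0.56 ± 0.12, adjusted p = 0.00852), while another of that gene read 0.24 higher. A dimmer Eif3i probe set fell by 0.41, against a difference of 0.01 on the brighter one. Eif2s2 and Eif4h also had a dimmer probe set that fell, by 0.64 and 0.40. Eif4g2 had a probe set that rose by 0.49, in contrast to 0.01 and -0.17 on its others. For Eif4a1, Eif3i and Eif4g2 the direction therefore depends on the probe set read. The probe sets of Eif1ax, Eif4e, Eif3c, Eif4b, Eif5b, Eif3a, Eif2s2, Eif4h and Eif4e2 all gave values below 0. Those of Eif2d, Eif2b2 and Eif1a all gave values above 0. Of the 41 main probe sets 6 are of the _x_at and 3 of the _s_at kind. With such probe sets left out, 1 gene rose and 3 fell, where 9.99% and 9.28% of the 7348 genes then tested did.

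**Figure D3:**
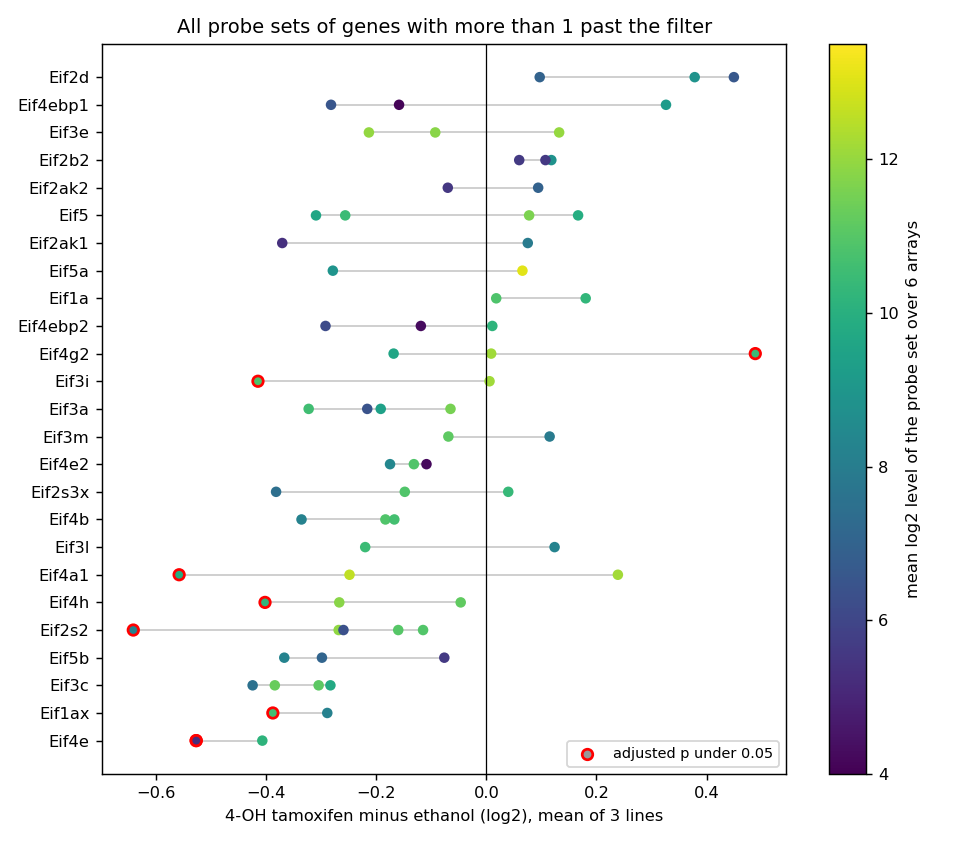
Mean log2 change over the 3 lines (x axis) for every probe set of the 25 genes with more than 1 past the filter, coloured by mean level, with a red edge where the probe set passed the test by itself. The 3 probe sets of Eif4e and the 4 of Eif3c all lie left of 0 and those of Eif2d right of 0. Those of Eif4a1, Eif4g2 and Eif5 lie on both sides.

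The lines differed from each other more often than treatment changed them, as also held over all genes tested, where 19.5% changed with treatment. In limma's F-test of the line terms 14 of the 41 genes (34.1%) differed, where 42.0% of all genes tested did, and 1 of the 14, Eif3d, also changed with treatment. The widest range between line means was that of Eif2s3y, 2.68-fold, with 8.90 and 9.08 in KPR5 against readings from 9.72 to 10.56 in KPR4 and KPR8 (adjusted p = 3.93e-05). Eif3b, a core subunit of eIF3, had 8.03 and 7.88 in KPR4, 8.77 and 8.75 in KPR5 and 9.29 and 8.71 in KPR8, the ethanol array first (adjusted p = 0.00141). Eif4ebp1 was 1.97-fold lower in KPR4 than in KPR8 on its _x_at probe set (adjusted p = 0.00208). Its next probe set read 6.21 and 6.19 in KPR4, 7.16 and 7.02 in KPR5 and 6.73 and 6.04 in KPR8. That probe set also differed between lines when tested by itself (limma F-test, adjusted p = 0.0148), but with KPR5 highest and KPR4 and KPR8 overlapping.

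The eIF2B genes were lowest in KPR4 and highest in KPR5 for all 4 members. Over all genes tested KPR4 was lowest for 36.9% and KPR5 highest for 35.9%, and over cytosolic tRNA synthetases for 65.0% and 80.0%. The order did not hold within each treatment. With ethanol KPR8 read above KPR5 for Eif2b4 (6.70 against 6.60) and Eif2b2 (8.93 against 8.86). With the drug KPR8 read below KPR4 for Eif2b5 (7.73 against 7.96). Of the 4 eIF2B genes 3 passed (75.0%, where 42.0% of all genes did). Eif2b4 had line means of 5.71, 6.53 and 6.45 in KPR4, KPR5 and KPR8 (adjusted p = 0.00928), Eif2b5 7.95, 8.68 and 8.04 (adjusted p = 0.0233) and Eif2b2 8.50, 9.14 and 8.87 (adjusted p = 0.0457, all from limma's F-test). Eif2b1 did not pass, at 6.19, 6.54 and 6.499. The Eif2b2 value comes from an _x_at probe set. With each probe set tested by itself, that one had an adjusted p of 0.0567 in limma's F-test. The other Eif2b2 probe sets had 0.449 and 0.0103. Of the 14 genes that differed, KPR4 was lowest for 8 and KPR5 highest for 8. The matching shares among all genes that differed are not given. Over the 41 genes KPR4 was lowest for 24 and KPR5 highest for 19, while over the 7644 genes these numbers were 2823 and 2742. Of the eIF3 genes 6 of 11 differed (54.5%, where 42.0% of all genes did). Eif3c, Eif3d and Eif3h were highest in KPR5, Eif3b was lowest in KPR4, and Eif3f and Eif3k were lowest in KPR8. Eif4e2, Eif4ebp2 and Eif2s2 also passed, and Eif2ak3, Eif4e and Eif1ax did not. The count of genes that differed was 7 of 41 without KPR4, 9 without KPR5 and 13 without KPR8. Matching shares over all genes are not given, so no drop particular to the members can be read from these counts.

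**Figure D4:**
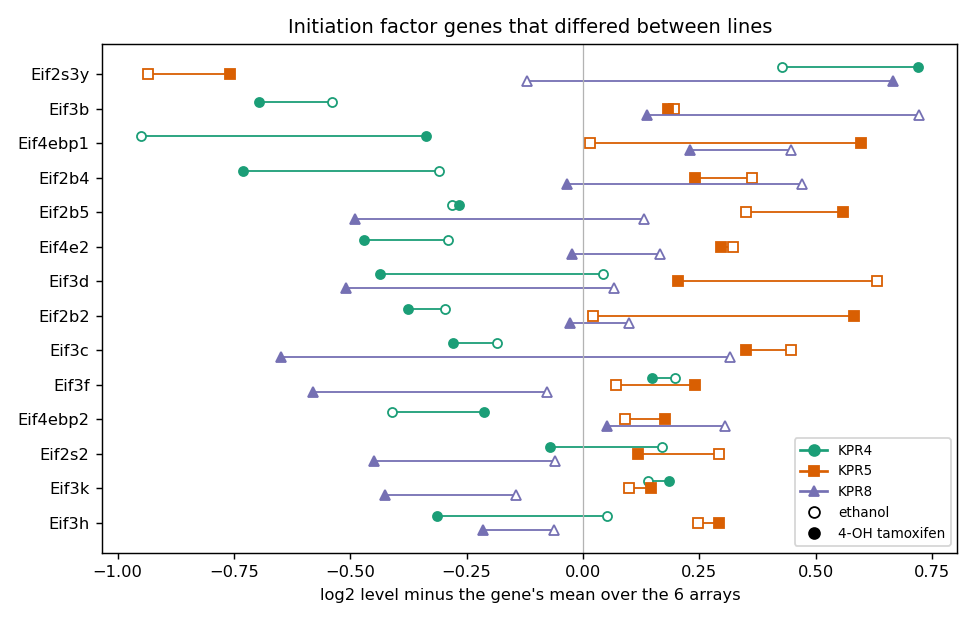
Level of the 14 genes that differed between lines, as log2 minus the gene's mean over the 6 arrays (x axis), with open symbols for ethanol and filled ones for 4-OH tamoxifen. KPR5 lies far left for Eif2s3y, and KPR4 lies left of the other lines for Eif3b, Eif4ebp1, Eif2b4 and Eif4e2.

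Other genes of translation give the setting. Among 35 measured partners and regulators of initiation, 2 rose and 6 fell (5.71% and 17.1%, against 10.5% and 8.94% of all genes), with a median of 0.09. Impact, an inhibitor of GCN2 signalling, rose by 0.91 ± 0.19 (adjusted p = 0.00322), and Pdcd4, which blocks the helicase eIF4A, by 0.56 ± 0.12 (SE, adjusted p = 0.00521). Pdcd4 read 11.29, 10.02 and 10.18 with ethanol and 11.55, 10.77 and 10.83 with the drug, higher in each line. The poly(A)-binding protein gene Pabpc4 fell by 0.67, and Larp1, which binds mRNAs of the translation machinery, by 0.64. Metap1, a methionine aminopeptidase, fell by 0.52, Ppp1r15b, which directs dephosphorylation of eIF2 alpha, by 0.39, the recycling factor Denr by 0.39 and the mRNA-binding protein Ybx1 by 0.30. Of 14 elongation and termination factors 0 rose and 3 fell (21.4%), where 10.5% and 8.94% of all genes did, with a median of -0.21: the mitochondrial elongation factor Gfm1 by 0.56, the release factor Etf1 by 0.42 and the ribosome recycling ATPase Abce1 by 0.36.

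Of 20 genes of cytosolic tRNA synthetases and their scaffold, 7 fell (35.0%) and 0 rose, where 8.94% and 10.5% of all genes did, with a median of -0.31. The scaffold gene Aimp2 fell by 0.68 and Yars, for tyrosine, by 0.61. The other fallers, Kars, Farsb, Lars, Tars and Vars, fell by 0.51 to 0.56. Vars read near the filter level, from 3.47 to 4.89, and its adjusted p was 0.0494 in limma. Of these 20, 12 differed between lines (60.0%, against 42.0% of all genes). KPR4 was lowest for 13 (65.0%, against 36.9%) and KPR5 highest for 16 (80.0%, against 35.9%). Ribosomal protein genes were tested for 20 of 45 listed in the large subunit and 20 of 32 in the small. Of the 20 of the large subunit 2 fell, Rpl12 by 0.60 and Rplp2 by 0.28, and 0 rose (median -0.16). The 10.0% that fell was close to the 8.94% of all genes. The Rpl12 probe set read only 6.02 to 7.29, where the median level of these large subunit genes was 12.91. Of the 20 of the small subunit 2 rose, Rps27l, a p53 target, by 0.88 and Rps9 by 0.34, and 0 fell (median -0.02). The 10.0% that rose was close to the 10.5% of all genes. No test set these groups against each other.

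The epithelial markers Krt8, Krt18, Krt19, Cdh1, Epcam and Cldn4 were above the filter level on all 6 arrays. Of 6 alveolar and airway markers 2 were, Abca3 and Aqp5, and Nkx2-1 stayed between 2.40 and 2.83, near background. Leukocyte, fibroblast and endothelial lists had 2 of 5, 3 of 5 and 0 of 3 members past the filter. Their summed signal, as log2, ran from 5.54 to 5.78 with ethanol and 5.81 to 6.01 with the drug for leukocytes, 7.08 to 7.997 and 6.92 to 8.22 for fibroblasts and 4.87 to 5.06 and 4.83 to 4.999 for endothelium. The epithelial sum ran from 14.36 to 14.71 and from 14.31 to 14.76. The leukocyte sum was thus higher on every drug-treated array, whereas the other ranges overlapped. The leukocyte gene Ptprc did not exceed 2.05, under the highest background control. The part of other cell types in the results was not tested.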

How the data were processed

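Gene expression was measured on 6 arrays, 3 per treatment and 2 per line. The authors deposited log2 expression per probe set, for which the submitters' processing notes name GCRMA 2.20.0 and R 2.11.0. GCRMA equalises the arrays (medians 4.56 to 4.63), so a shift common to all genes cannot be seen, and probe sets are not comparable in level. Gene names came from GEO's platform annotation, with Entrez identifiers looked up in GRCm38.p6, which changed 0 symbols.

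The filter asked for log2 4 on 3 or more arrays, after which the brightest probe set stood for its gene. Limma 3.58.1 in R 4.3.3 fitted line and treatment with a trend in the variance moderation (prior df 12.9, residual df 2). P-values are 2-sided and adjusted over all 7644 genes. Errors are moderated standard errors over 3 lines, and the number of arrays limits the precision. Each line is its own replicate: deviations from the group means correlated at 0.876, 0.737 and 0.761 between the arrays of KPR4, KPR5 and KPR8, and the pairing follows from the shared line. A difference in response between lines could not be tested, as each has a single pair of arrays. P-values set each change against a moderated variance, which joins the spread between these 3 lines with that of other genes at similar levels. With prior df 12.9 against residual df 2, the other genes carry most of the weight. Named were the members past the threshold, the member below the filter, the largest change per role, the 5 widest ranges between lines, listed translation genes past the threshold, and, after their values were seen, further members. The members and lists were chosen with earlier results of these data known.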

Additional observations from a re-analysis of the deposited data

Results flagged for a closer look

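Outside the comparisons lie 5 probe sets whose annotation gives several symbols, among them a name starting with Eif, so none was assigned to a gene. All read above the highest bacterial control (2.84) on every array. The mean log2 level was 9.81 for 1417242_at, 8.27 for 1426394_at, 6.59 for 1426395_s_at, 5.93 for 1427479_at and 10.07 for 1452052_s_at. The differences between drug and ethanol in KPR4, KPR5 and KPR8 were -0.35, -0.32 and -0.49 for 1452052_s_at and -0.07, -0.27 and -0.76 for 1417242_at. They were 0.57, -0.14 and -0.15 for 1426394_at, -0.09, 0.02 and 0.13 for 1426395_s_at, and -0.11, 0.10 and 0.32 for 1427479_at, so these 3 had no shared sign across lines. Of the 5, 1452052_s_at and 1417242_at were lower in each line. None was tested.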

How the results depend on the processing

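Leaving the line out of the fit (no replicate block) ended the call of each of the 4 genes: 0 rose and 0 fell, with 22 and 1 of all genes, and adjusted p-values of 0.262 for Eif2ak3, 0.587 for Eif3d, 0.501 for Eif4e and 0.418 for Eif1ax. Over the 13 alternatives Eif3d stayed past the threshold in 12 (adjusted p 0.00616 to 0.587), Eif2ak3 in 11 (0.00583 to 0.262), and Eif4e (0.0293 to 0.501) and Eif1ax (0.0259 to 0.418) in 7 each. Eif4e also missed it with no filter (0.0725), after quantile normalization (0.0558) and with no trend (0.0875), and Eif1ax with the mean (0.0624) or median (0.0729) of the probe sets and with no trend (0.0817). The count of risers was 2 with the stricter filter (log2 5), the mean or the median of probe sets, as was the count of risen probe sets when each was tested. The count of fallers was 1 with no trend, and 8 probe sets fell when each was tested. Genes that differed between lines numbered 7 of 41 with no trend, and 30 of 88 probe sets differed when each was tested. Matching shares over all genes are not given for these line counts. With a line left out, risers ranged from 1 to 3, fallers from 2 to 3, genes differing between lines from 7 to 13, and over all genes 525 to 613 rose and 420 to 456 fell. The members' median change stayed between -0.16 and -0.09 under every alternative. Leaving out _x_at and _s_at probe sets, testing each probe set and leaving lines out of the line test were chosen after seeing the data.

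Among 530 values of single genes under an alternative, 466 kept direction and side of the threshold, 15 lost and 9 gained the call, and 40 in 19 genes turned sign, none of them called in the fit as reported. The mean of probe sets turned Eif2ak1 (-0.15), Eif3e (-0.058), Eif3i (-0.20), Eif3m (0.023), Eif4ebp1 (-0.038), Eif4ebp2 (-0.13), Eif5 (-0.080) and Eif5a (-0.11). The median turned Eif2ak1 (-0.15), Eif2b2 (-0.015), Eif2s3x (0.040), Eif3e (-0.083), Eif3i (-0.20), Eif3m (0.023), Eif4a1 (0.20), Eif4ebp1 (-0.28), Eif4ebp2 (-0.29), Eif5 (-0.10) and Eif5a (-0.11). Without _x_at and _s_at probe sets Eif2s3x (0.040), Eif3e (-0.093) and Eif4ebp1 (-0.28) turned. Quantile normalization turned Eif3i (-0.047) and Eif4g2 (-0.032), and array centring Eif3i (-0.00028). With a line left out, the values ran from -0.15 to 0.17 for Eif1a, -0.17 to 0.25 for Eif2ak1, -0.089 to 0.24 for Eif2ak2, -0.10 to 0.24 for Eif2b2, -0.30 to 0.11 for Eif2b5, -0.28 to 0.060 for Eif3f, -0.056 to 0.042 for Eif3i, -0.12 to 0.046 for Eif3k, -0.022 to 0.12 for Eif4a2, -0.083 to 0.14 for Eif4ebp2, -0.020 to 0.057 for Eif4g2, -0.046 to 0.21 for Eif4g3 and -0.032 to 0.13 for Eif5a. The cause was not tested. The number of arrays limits the precision, and probe sets near background, such as those of Eif4e3, give no usable change.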
